A study of Mus musculus with 4 samples.

Results

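The genes for the proteins of the mitochondrial ribosome were taken as the rows of the deposited table whose symbols begin with Mrpl or Mrps and a number. Of 83 such rows, 5 named as pseudogenes were left out, which gave 78 members among the 52192 genes of the table. By symbol, 49 encode proteins of the large subunit and 29 of the small subunit. The members lie on 17 chromosomes, with 11 on chromosome 11, and each is annotated as protein coding. They were measured in AML12 cells, a hepatocyte line that was set up from the liver of a mouse transgenic for human transforming growth factor alpha. The cells carried, through a lentivirus, either a control short hairpin RNA (shCtrl, 2 libraries) or a hairpin against Safb (shSafb, 2 libraries). RNA from both groups came from cells in medium with 10% serum, an insulin, transferrin and selenium supplement and 0.1 μM dexamethasone, 5 days after the hairpin was delivered. Values are TPM, a transcript abundance per gene length scaled to a fixed library total, which retains no count of reads, so the depth of each library is unknown. No label tells whether the 2 libraries of a group came from different cultures, and the p-values therefore rest on the spread between these libraries alone, which may be technical.

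The mitochondrial ribosome translates the few messenger RNAs of mitochondrial DNA, all of which encode subunits of the respiratory chain and of ATP synthase. Its RNA comes from mitochondrial DNA, but every one of its proteins is encoded in the nucleus, made in the cytosol and imported. Some of these proteins descend from bacterial ribosomal proteins, and others are found only in mitochondria. In hepatocytes, which are rich in mitochondria, the respiratory chain that depends on this ribosome powers biosynthesis and nitrogen disposal.

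Safb, the targeted gene, encodes scaffold attachment factor B, a nuclear protein that binds DNA and RNA. It stood at 23.8 and 23.3 TPM in the shCtrl libraries and at 15.8 and 15.02 TPM in the shSafb libraries. The groups did not overlap, and Safb fell by 0.56 ± 0.07 on the log2 scale (SE; limma, adjusted p = 0.00411). In each library 12946 to 13117 genes had at least 1 TPM, and across genes Spearman's rho was 0.990 and 0.989 within the groups and 0.951 to 0.952 between them, where genes are not independent replicates. All 7 hepatocyte markers examined reached a mean of 1 TPM, with a summed level of 9279 to 9317 TPM in shCtrl and 13083 to 13224 TPM in shSafb. Of the 7, Trf rose (2453 and 2418 TPM against 6814 and 6778 TPM), Alb fell (378 and 345 TPM against 122 and 127 TPM), Apoa1 fell (56.4 TPM in both shCtrl libraries against 28.2 and 28.1 TPM) and 4 did not pass the test. Of the other cell types that a liver culture could hold, 4 of 5 cholangiocyte markers reached 1 TPM (sums of 1640 to 1675 and 1513 to 1578 TPM, with Krt19 higher, Spp1 and Sox9 lower, and Epcam at 0 in both shCtrl libraries), as did 2 of 6 macrophage markers (117 to 121 and 66.6 to 68.6 TPM, nearly all Cd14, with Adgre1 and Clec4f at 0). These 2 went opposite ways, with Cd14 lower and Csf1r higher (0.24 and 0.45 TPM in shCtrl against 1.92 and 1.72 TPM in shSafb). Only 1 of 8 fibroblast and stellate markers did so (sums of 2.97 to 3.06 and 2.83 to 3.47 TPM, with Lrat at 0), and the 5 endothelial markers summed to at most 0.153 TPM, with Cdh5 and Kdr at 0. In a bulk measurement, fewer cells of a type and less RNA per cell cannot be told apart. The part of these markers in the results that follow was not tested.

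All 78 genes passed the filter of a mean of 1 TPM over the 4 libraries, so every member was tested. Their mean levels ran from 3.89 TPM for Mrpl47 to 196 TPM for Mrpl33, a 50.5-fold range. A mean above 100 TPM was reached by 6 members, 5 of the large subunit and 1 of the small, and 4 members had a mean under 10 TPM. Longer genes tended to have lower levels (Spearman's rho of mean TPM with exonic length -0.43 across the 78 genes, which are not independent replicates), and TPM itself divides by length. Each protein is present in 1 copy or a few copies per ribosome, yet the RNA levels of the members were spread this widely in both groups.

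**Figure D1:**
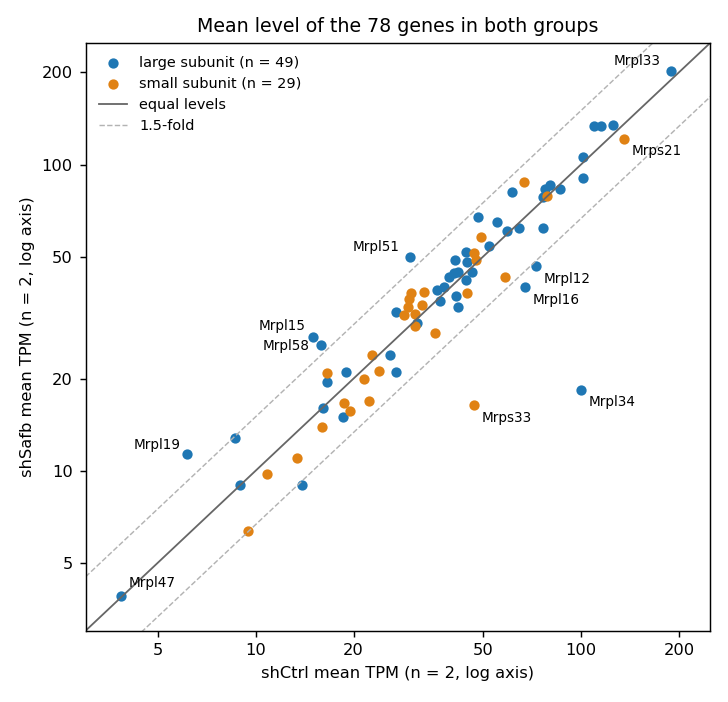
Mean TPM of each of the 78 genes in shCtrl (horizontal, log axis) and shSafb (vertical, log axis), 2 libraries a group, with points coloured by subunit, a solid line for equal levels and dashed lines for 1.5-fold. Most genes lie near the solid line, while Mrpl34 (100.1 against 18.4 TPM) and Mrps33 (47.0 against 16.3 TPM) lie far below it.

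Between shSafb and shCtrl, 27 of the 78 genes (34.6%) passed the test (limma, adjusted p under 0.05 over all genes tested), against 44.3% of the 13111 genes tested. Of these, 16 were higher in shSafb (20.5%, against 21.9% of all genes) and 11 were lower (14.1%, against 22.4%). The lower share called among the members depended on the filter. With a filter at a mean of 0.1 TPM, 32.1% of the members and 31.4% of 18480 genes were called. With no filter, these shares were 26.9% of the members and 21.1% of 24037 genes. A filter at 5 TPM gave 36.4% of the members and 50.1% of 10071 genes. Without shCtrl replicate 1, shCtrl replicate 2, shSafb replicate 1 or shSafb replicate 2, the higher members numbered 10, 11, 7 and 13, and the lower members 8, 7, 7 and 6. Over the same 4 fits, the share of all genes called also dropped, to between 28.5% and 32.8%.

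On the log2(scaled TPM + 1) scale of the test, a change of 1.5-fold or more was also found in 8 of the called members (10.3% of the 78), against 20.7% of all genes. The rises were Mrpl15, Mrpl19, Mrpl51 and Mrpl58, where 9.94% of all genes rose this far. The falls were Mrpl34, Mrps33, Mrpl16 and Mrpl12, where 10.7% of all genes fell this far. Mrpl35 lay just outside this limit, with a log2 change of -0.55, though its deposited TPM differed 1.55-fold between the group means. In 57 members (73.1%) the libraries of the 2 groups did not overlap, 30 with shSafb above and 27 with shSafb below, beside 74.7% of all genes.

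Most members changed little. Their median log2 change was 0.07, where the median of all genes was 0.0016, and the median size of the change without its sign was 0.16, against 0.30 for all genes. A change of less than 0.2 in either direction was seen in 42 members (53.8%), against 35.5% of all genes. Among the 9988 genes whose mean TPM lay within the range of the members, 47.6% were called and the median size of the change was 0.29.

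**Figure D2:**
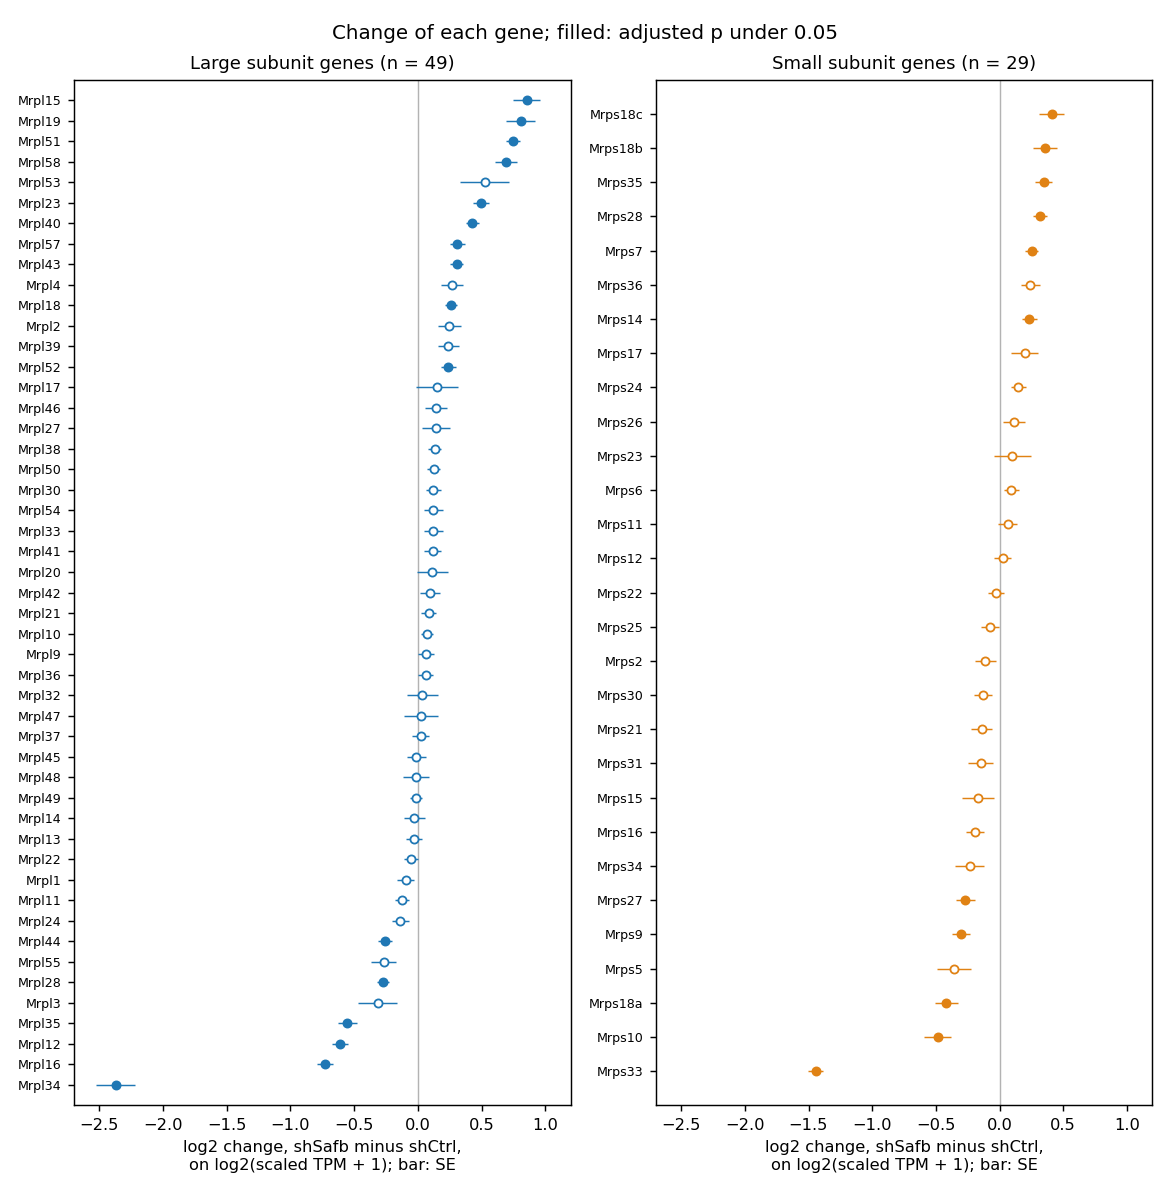
Log2 change of each gene (shSafb minus shCtrl on log2(scaled TPM + 1), horizontal) with its standard error, genes ranked within the large (left) and small (right) subunit, filled points past an adjusted p of 0.05. Changes run from -2.37 (Mrpl34) to 0.85 (Mrpl15) in the large subunit and from -1.44 (Mrps33) to 0.41 (Mrps18c) in the small subunit.

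The largest change among the 78 genes was in Mrpl34, which encodes the counterpart of bacterial L34, a small protein bound to the ribosomal RNA of the large subunit. Mrpl34 (ENSMUSG00000034880) lies on the plus strand of chromosome 8 at 71464959 to 71465747 in GRCm38. Its level was 100.4 and 99.8 TPM in the shCtrl libraries and 21.3 and 15.5 TPM in the shSafb libraries. Every shSafb value was far below every shCtrl value, and the shSafb libraries differed more from each other than the shCtrl libraries did. The mean of 100.1 ± 0.425 TPM (SD, n = 2) in shCtrl stood 5.43-fold above the 18.4 ± 4.08 TPM (SD, n = 2) in shSafb. The log2 change was -2.37 ± 0.15 (SE; limma, adjusted p = 0.00105), and the adjusted p was 0.00647 to 0.0120 when each library was left out. Ranked by group mean among the 78 genes, Mrpl34 moved from place 8 in shCtrl to place 63 in shSafb.

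The genes on either side of Mrpl34, chosen after its value was seen, are given for comparison. Abhd8, which encodes an abhydrolase domain protein and lies upstream on the opposite strand, stood at 24.0 and 25.5 TPM in shCtrl and at 18.4 and 17.9 TPM in shSafb. The log2 change of Abhd8 was -0.40 ± 0.08 (SE; limma, adjusted p = 0.0150), a call that was lost without shSafb replicate 1 (adjusted p = 0.0605) or shSafb replicate 2 (adjusted p = 0.0691). Dda1, which encodes a partner of the DDB1 ubiquitin ligase and lies downstream on the same strand, stood at 18.4 and 16.3 TPM in shCtrl and at 19.3 and 19.2 TPM in shSafb (log2 change 0.17, adjusted p = 0.122).

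The sequences just upstream of 4 members that changed by more than 1.5-fold are shown, 3 that fell and 1 that rose, to set start regions from both directions beside that of Mrpl34. Mrpl15 and Mrpl19 have no entry in the table of promoters used, and the window of Mrpl51 lies within its annotated gene. The stretches shown are from RefSeq on GRCm38.p6, each read 5′ to 3′ on the strand of its gene, and hold no annotated exon. Mrpl34 is chr8:71464676-71464925 on the plus strand, Mrps33 is chr6:39810989-39811186 on the minus strand, Mrpl12 is chr11:120484387-120484612 on the plus strand and Mrpl58 is chr11:115403502-115403751 on the plus strand. Capitals mark matches on either strand to 5 motifs: GCGCA and GCGC with 1 base of any kind between them for the factor NRF1, CCGGAAG for the ETS family that includes GABPA, AAGATGGCG for YY1, the GC box GGGCGG, and ACTACA followed after 2 bases of any kind by TCCC, which is the core of an element bound by ZNF143 and is called the ACTACA motif from here on.
Mrpl34: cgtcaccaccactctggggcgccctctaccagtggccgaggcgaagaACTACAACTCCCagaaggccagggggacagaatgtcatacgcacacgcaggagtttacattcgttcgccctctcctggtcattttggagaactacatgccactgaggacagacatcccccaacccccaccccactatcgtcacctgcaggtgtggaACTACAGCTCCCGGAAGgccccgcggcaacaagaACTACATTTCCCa
Mrps33: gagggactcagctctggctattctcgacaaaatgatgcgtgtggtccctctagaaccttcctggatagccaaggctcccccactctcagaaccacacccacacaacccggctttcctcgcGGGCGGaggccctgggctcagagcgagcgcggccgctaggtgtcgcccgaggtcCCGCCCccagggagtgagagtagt
Mrpl12: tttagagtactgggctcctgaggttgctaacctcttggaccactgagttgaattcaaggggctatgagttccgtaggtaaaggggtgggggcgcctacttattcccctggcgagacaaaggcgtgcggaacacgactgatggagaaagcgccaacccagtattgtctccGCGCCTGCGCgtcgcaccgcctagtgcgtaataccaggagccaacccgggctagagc
Mrpl58: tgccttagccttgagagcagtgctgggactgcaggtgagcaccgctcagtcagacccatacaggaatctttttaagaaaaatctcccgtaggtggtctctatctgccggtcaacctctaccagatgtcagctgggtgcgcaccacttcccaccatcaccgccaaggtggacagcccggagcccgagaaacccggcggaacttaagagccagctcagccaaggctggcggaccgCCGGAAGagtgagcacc
The Mrpl34 stretch holds 3 matches to the ACTACA motif and 1 to CCGGAAG, which overlaps the middle of these. The Mrps33 stretch holds 2 GC boxes, 1 on each strand, the Mrpl12 stretch 1 match to the NRF1 motif, and the Mrpl58 stretch 1 match to CCGGAAG. The windows counted in the next paragraph reach past these stretches. That of Mrps33 holds 3 GC boxes and 1 match to CCGGAAG, and that of Mrpl58 holds 2 matches to CCGGAAG. The upstream stretch of Mrpl16, which also fell by more than 1.5-fold, holds none of the 5 motifs.

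NRF1, the ETS factor GABPA and YY1 are known regulators of nuclear genes for mitochondrial proteins. In windows of 250 bases before to 50 bases after the annotated starts, 69 of the 78 members had at least 1 window, 75 windows in all, out of 32851 windows for all genes in the table of promoters. The NRF1 motif was found in 17.3% of the members' windows and 4.60% of all windows. CCGGAAG was found in 34.7% and 8.86%, AAGATGGCG in 10.7% and 1.40%, and the GC box in 52.0% and 35.7%. All windows were counted whatever the level of their gene, while every member passed the filter of a mean of 1 TPM. Whether these shares differ from those of other expressed genes was not tested. By call, CCGGAAG was found in 8 of the 12 matched members that rose, 4 of the 11 that fell and 14 of the 46 that did not pass the test, and the NRF1 motif in 1, 3 and 9 of them. The GC box was found in 10 of the members that rose, 2 that fell and 22 that did not pass the test, and AAGATGGCG in 0, 3 and 5. These splits are descriptions and were not tested.

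The ACTACA motif was added to the search after the Mrpl34 window had been read. It was found in 6.67% of the members' windows and 1.81% of all windows. The members with a match were Mrpl24, Mrpl34, Mrpl42, Mrpl50 and Mrps22, and the log2 changes of the other 4 were -0.14, 0.10, 0.12 and -0.03, with none past the test. Only 3 of the 32851 windows held at least 3 matches, and that of Mrpl34 was one of them. As that window was read before the motif was chosen, its place among these is no test of the motif. A match is a run of letters, and nothing here shows that a factor bound it.

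Of the other large subunit genes that fell, Mrpl16, which encodes the counterpart of bacterial L16 near the tRNA sites, stood at 65.8 and 69.2 TPM in shCtrl and at 39.4 and 40.0 TPM in shSafb. The groups were far apart, with a log2 change of -0.73 ± 0.06 (SE; limma, adjusted p = 0.00205). Mrpl12 encodes the protein of the ribosomal stalk that recruits translation factors, and its product has also been found to bind the mitochondrial RNA polymerase. It stood at 75.04 and 70.6 TPM in shCtrl and at 48.4 and 44.6 TPM in shSafb (log2 change -0.61 ± 0.06, limma, adjusted p = 0.00276). Both shSafb libraries were again below both shCtrl libraries. Mrpl35, the counterpart of bacterial L35, stood at 14.1 and 13.7 TPM in shCtrl and at 8.95 and 8.99 TPM in shSafb (log2 change -0.55 ± 0.07, limma, adjusted p = 0.00537). These 3 genes and Mrpl34 passed the test in every setting tried.

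Mrpl28 and Mrpl44 showed smaller falls that depended on single libraries. Mrpl28, the counterpart of bacterial L28, went from 77.8 and 75.1 TPM to 62.2 and 61.6 TPM (log2 change -0.27, limma, adjusted p = 0.0100). Its call was lost without shSafb replicate 1 (adjusted p = 0.0548) or shSafb replicate 2 (adjusted p = 0.0622). Mrpl44, a mitochondrion-specific protein with a fold like that of RNase III, went from 43.7 and 40.1 TPM to 34.5 and 34.0 TPM (log2 change -0.26, limma, adjusted p = 0.0210). Mrpl44 missed the threshold without shCtrl replicate 1 (adjusted p = 0.0733), shSafb replicate 1 (0.0844) or shSafb replicate 2 (0.102). In both genes the groups did not overlap.

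The largest rise was in Mrpl15, which encodes the counterpart of bacterial L15. Mrpl15 (ENSMUSG00000033845, minus strand of chromosome 1 at 4773206 to 4785739 in GRCm38) stood at 13.97 and 16.0 TPM in shCtrl and at 26.1 and 28.7 TPM in shSafb. The lower shSafb value was well above the higher shCtrl value. The mean rose 1.83-fold, from 15.0 ± 1.42 to 27.4 ± 1.85 TPM (SD, n = 2 each), and the log2 change was 0.85 ± 0.11 (SE; limma, adjusted p = 0.00473).

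Mrpl19, the counterpart of bacterial L19 at the interface between the subunits, stood at 5.69 and 6.64 TPM in shCtrl and at 11.3 TPM in both shSafb libraries. It rose by 0.81 ± 0.11 on the log2 scale (SE; limma, adjusted p = 0.00625). Over 1962 bases its exons overlap those of Gcfc2 on the opposite strand, and Gcfc2 had a log2 change of -0.04. No source used here says whether the counting used strand, so reads of the overlap cannot be assigned with certainty.

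Mrpl51 and Mrpl58 encode proteins with no bacterial counterpart in the ribosome. Mrpl51 stood at 30.0 and 29.7 TPM in shCtrl and at 51.1 and 48.9 TPM in shSafb (log2 change 0.75 ± 0.06, limma, adjusted p = 0.00146). Mrpl58, also known as Ict1, is an integral ribosomal protein with the activity of a peptidyl-tRNA hydrolase that can release stalled chains. It stood at 16.98 and 14.7 TPM in shCtrl and at 27.0 and 24.6 TPM in shSafb (log2 change 0.69 ± 0.09, limma, adjusted p = 0.00485). In neither gene did the groups overlap.

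Mrpl40 and Mrpl23 rose by less than 1.5-fold but also passed the test in every setting tried. Mrpl40, a protein of the central protuberance where the subunits meet, went from 64.2 and 58.5 TPM to 80.7 and 81.7 TPM (log2 change 0.43, limma, adjusted p = 0.00428). Mrpl23, a protein at the exit of the tunnel for the growing chain, went from 47.4 and 49.1 TPM to 65.9 and 68.5 TPM (log2 change 0.49, limma, adjusted p = 0.00452). The processed pseudogene Mrpl23-ps1 is identical to Mrpl23 over 540 aligned bases and was listed at 12.1, 8.81, 11.3 and 12.0 TPM in the 4 libraries, so the level of Mrpl23 is uncertain to that extent.

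**Figure D3:**
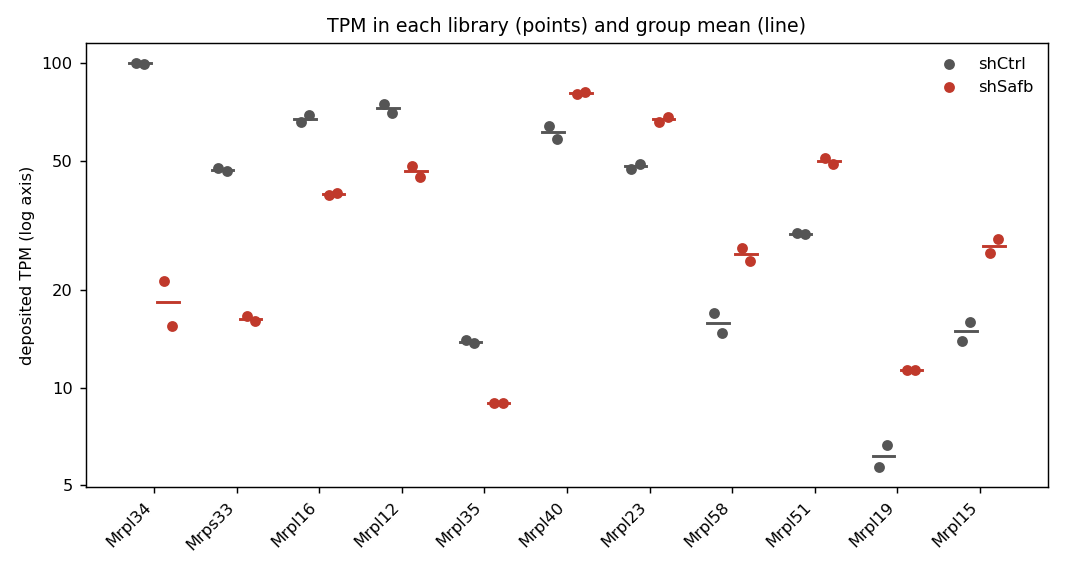
Deposited TPM (vertical, log axis) of the 11 genes that passed the test in every setting, with 1 point per library (grey shCtrl, red shSafb) and a line at each group mean. In each of the 11 genes, 5 lower and 6 higher in shSafb, the points of the groups are separate, as they are in 74.7% of all genes tested. The share of all genes tested that passed in every setting was not computed.

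The other large subunit genes that rose were Mrpl57, Mrpl43, Mrpl18 and Mrpl52, with log2 changes of 0.31, 0.31, 0.26 and 0.24 (limma, adjusted p of 0.0151, 0.0103, 0.0122 and 0.0341). Mrpl43 and Mrpl18 lie outside the rule for named genes and were added after their values were seen. Mrpl52, at 116 and 114 TPM in shCtrl and 140.0 and 127 TPM in shSafb, was the third most abundant large subunit gene. Each of these 4 calls was lost without at least 1 library. Without shSafb replicate 1, the adjusted p was 0.0701 for Mrpl57, 0.0566 for Mrpl43, 0.0632 for Mrpl18 and 0.118 for Mrpl52. Without shSafb replicate 2 it was 0.0665 for Mrpl57 and 0.0620 for Mrpl18, and without shCtrl replicate 2 it was 0.0599 for Mrpl57 and 0.100 for Mrpl52. Without shCtrl replicate 1 it was 0.123 for Mrpl52.

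In the small subunit the largest change was in Mrps33, a mitochondrion-specific protein of the head of the subunit. Mrps33 (ENSMUSG00000029918, minus strand of chromosome 6 at 39801804 to 39810988 in GRCm38) stood at 47.4 and 46.5 TPM in shCtrl and at 16.6 and 16.0 TPM in shSafb. The libraries within each group were close together and the groups far apart. The mean in shCtrl, 47.0 ± 0.673 TPM, was 2.88-fold that in shSafb, 16.3 ± 0.408 TPM (SD, n = 2 each). The log2 change was -1.44 ± 0.06 (SE; limma, adjusted p = 6.11e-04), and Mrps33 was the one small subunit gene to pass the test in every setting. A processed pseudogene that is 99.7% identical to it over 321 bases, Gm5776, was listed at 0.690 and 0.848 TPM in shCtrl and 0.191 and 0.108 TPM in shSafb.

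Smaller falls were found in 4 further genes with small subunit symbols. Mrps10, the counterpart of bacterial S10, went from 9.95 and 8.999 TPM to 5.84 and 6.90 TPM (log2 change -0.49, limma, adjusted p = 0.0232). Mrps9, the counterpart of bacterial S9, went from 35.8 and 35.6 TPM to 29.4 and 27.0 TPM (log2 change -0.31, limma, adjusted p = 0.0242). Mrps27, a protein with pentatricopeptide repeats, which are RNA binding folds, went from 18.9 and 19.9 TPM to 15.6 and 15.8 TPM (log2 change -0.27, limma, adjusted p = 0.0430). The groups did not overlap in any of the 3 genes, yet each call was lost when single libraries were left out. The adjusted p of Mrps10 was 0.0921 without shCtrl replicate 1, 0.0643 without shCtrl replicate 2 and 0.0894 without shSafb replicate 1. That of Mrps9 was 0.0676 without shCtrl replicate 1, 0.0849 without shCtrl replicate 2 and 0.106 without shSafb replicate 2. For Mrps27 it was between 0.0539 and 0.153 without any 1 of the 4 libraries.

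The fourth of these genes, Mrps18a, has 2 paralogs, and all 3 descend from bacterial S18. Mrps18c holds the place of S18 in the small subunit, Mrps18b holds another place in the small subunit, and Mrps18a sits in the large subunit despite its symbol. Mrps18a fell from 56.9 and 60.1 TPM to 45.6 and 40.0 TPM (log2 change -0.42 ± 0.09, limma, adjusted p = 0.0210). Mrps18b rose from 30.7 and 29.5 TPM to 41.4 and 34.9 TPM (log2 change 0.35 ± 0.10, limma, adjusted p = 0.0390), and Mrps18c rose from 64.8 and 68.7 TPM to 80.8 and 94.8 TPM (log2 change 0.41 ± 0.10, limma, adjusted p = 0.0277). In all 3 paralogs the groups did not overlap. Mrps18a was no longer called without shCtrl replicate 2 or shSafb replicate 2 (adjusted p of 0.0780 and 0.0734). Mrps18b was no longer called without shCtrl replicate 1, shCtrl replicate 2 or shSafb replicate 1 (adjusted p of 0.128, 0.124 and 0.0993), and Mrps18c without shCtrl replicate 1, shCtrl replicate 2 or shSafb replicate 2 (adjusted p of 0.110, 0.0548 and 0.0770). Every one of these alternatives kept the directions of the 3 genes.

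The remaining small subunit genes that rose were Mrps35, Mrps28, Mrps7 and Mrps14, with log2 changes of 0.35, 0.32, 0.25 and 0.23 (limma, adjusted p of 0.0154, 0.0133, 0.0172 and 0.0293). Mrps7 and Mrps14 are counterparts of bacterial proteins of the head of the small subunit, and Mrps14 was added to the named genes after its value was seen. All 4 calls were lost without shSafb replicate 1 (adjusted p of 0.0749, 0.0704, 0.0847 and 0.0826 in the same order). Other losses were those of Mrps35, Mrps7 and Mrps14 without shCtrl replicate 1 (0.0606, 0.0671 and 0.0973) or shSafb replicate 2 (0.0623, 0.0655 and 0.126), and of Mrps28 and Mrps14 without shCtrl replicate 2 (0.0560 and 0.0808).

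Among the 51 members that did not pass the test were 4 of the 6 with a mean above 100 TPM. Mrpl33, the counterpart of bacterial L33 and the most abundant member, stood at 189 and 189.8 TPM in shCtrl and at 216 and 190.0 TPM in shSafb (log2 change 0.12, limma, adjusted p = 0.248). Mrpl30 was listed at 122, 129, 135 and 134 TPM over shCtrl 1, shCtrl 2, shSafb 1 and shSafb 2 (adjusted p = 0.173), and Mrps21 at 129, 142, 117 and 125 TPM (adjusted p = 0.227). Mrps12, a counterpart of bacterial S12 of the decoding centre, had nearly the same values in both groups, with 76.5 and 81.0 TPM in shCtrl against 76.4 and 80.9 TPM in shSafb. Mrps30, another large subunit protein under a small subunit symbol, stood at 19.3 and 17.9 TPM in shCtrl and at 17.03 and 16.2 TPM in shSafb (log2 change -0.13, adjusted p = 0.185). A p that misses the threshold does not show that these genes were equal.

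The subunits were then set side by side. Of the 49 large subunit genes, 10 were higher and 6 lower in shSafb (32.7% called, against 44.3% of all genes tested), with a median log2 change of 0.10. Of the 29 small subunit genes, 6 were higher and 5 lower (37.9% called), with a median log2 change of -0.03. With Mrps18a and Mrps30 moved to the large subunit, where their proteins sit, the counts were 10 higher and 7 lower of 51 large subunit genes and 6 higher and 4 lower of 27 small subunit genes, with medians of 0.08 and 0.02. The sign of the small subunit's median was not stable. By structure it was -0.0021 with no scaling, -0.0085 with TPM rescaled without small RNA and mitochondrial genes, and -0.0035 without Mrps36, whose protein has since been assigned to the ketoglutarate dehydrogenase complex. With 1 library left out it was -0.05 without shCtrl replicate 1, -0.02 without shCtrl replicate 2, 0.02 without shSafb replicate 1 and -0.0082 without shSafb replicate 2. The difference between the subunits was not tested.

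Summed over the genes of a subunit, large subunit RNA came to 2554 and 2527 TPM in the shCtrl libraries and to 2616 and 2524 TPM in the shSafb libraries. Small subunit RNA came to 1044 and 1058 TPM in shCtrl and to 1015 and 1031 TPM in shSafb. The large subunit sums overlapped between the groups, while both small subunit sums in shSafb were below both in shCtrl. Single genes weighed on both patterns. The large subunit sums averaged 2541 TPM in shCtrl and 2570 TPM in shSafb, but 2441 and 2552 TPM without Mrpl34. The small subunit sums averaged 1051 and 1023 TPM, a fall smaller than that of Mrps33 alone, from a mean of 47.0 to 16.3 TPM. The ratio of large to small was 2.45 and 2.39 in shCtrl and 2.58 and 2.45 in shSafb, with means of 2.42 ± 0.041 and 2.51 ± 0.092 (SD, n = 2 each). The highest shCtrl ratio and the lowest shSafb ratio were the same to 3 digits, so the groups were not separated beyond the spread between libraries. Over all 78 genes the sum was 3598 and 3585 TPM in shCtrl and 3631 and 3556 TPM in shSafb, with both shCtrl sums between those of shSafb. The median level of a large subunit gene was 42.2 and 42.4 TPM in shCtrl and 44.2 and 44.4 TPM in shSafb. That of a small subunit gene was 30.8 and 29.5 TPM in shCtrl and 30.3 and 32.2 TPM in shSafb. Between the groups, the large subunit medians did not overlap and the small subunit medians did, and neither difference was tested.

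Members were also classed by whether their place in the ribosome is that of a bacterial protein, which puts Mrps18a and Mrps18b, for all their descent from S18, among the mitochondrion-specific ones. The 46 members with a bacterial counterpart had 8 rises and 7 falls (32.6% called), with a median log2 change of 0.05. The 32 mitochondrion-specific members had 8 rises and 4 falls (37.5% called), with a median of 0.11. Among all genes tested, 44.3% were called, 21.9% as higher and 22.4% as lower. Within the large subunit, the 30 genes of the first kind had 4 rises and 5 falls (30.0% called). The 19 of the second kind, among them Mrpl51, Mrpl58 and Mrpl40, had 6 rises and 1 fall (36.8% called), and the fall was in Mrpl44. Within the small subunit, these counts were 4 rises and 2 falls of 16 (37.5% called) and 2 rises and 3 falls of 13 (38.5% called). With Mrps18a and Mrps18b counted by descent instead, the small subunit had 5 rises and 3 falls of 18 genes of the first kind (44.4% called). Of the second kind it had 1 rise and 2 falls of 11 (27.3% called). Over both subunits there were then 9 rises and 8 falls of 48 (35.4% called) and 7 rises and 3 falls of 30 (33.3% called). The differences between these classes were not tested.

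Many of the members share a start region with another gene. A start within 1000 bases of the start of a tested protein coding gene on the opposite strand, called head-to-head here, was found for 30 members in 29 pairs, since Mrpl46 and Mrps11 pair with each other. In some pairs the genes point away from each other with a gap. In others their 5′ ends overlap, as for Mrpl18 with Tcp1 (645 bases) and Mrpl43 with Twnk (780 bases, 507 of them exonic in both). In 6 pairs both genes passed the test in the same direction, in 2 pairs in opposite directions, in 2 pairs the member alone passed, in 10 pairs the neighbour alone and in 9 pairs neither did. Beside these counts, 44.3% of all genes tested passed, 21.9% as higher and 22.4% as lower, and whether the pairs differ from unrelated genes was not tested. Mrpl51 rose together with Ncapd2, a condensin subunit gene whose start is 100 bases away and which went from 19.6 and 17.6 TPM to 31.0 and 26.8 TPM (log2 change 0.63, limma, adjusted p = 0.00783). Mrpl57 rose with Ska3, which encodes a kinetochore protein and starts 49 bases away (log2 change of Ska3 0.91, limma, adjusted p = 0.00508). Mrpl44 fell with Wdfy1, an adaptor of endosomal signalling whose level went from 34.3 and 28.8 TPM to 17.3 and 12.1 TPM (log2 change -1.04, limma, adjusted p = 0.0119). Wdfy1 did not pass the test without shCtrl replicate 1 (adjusted p = 0.0597), and its exons overlap those of Mrpl44 over 126 bases.

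In other pairs the genes differed in direction or in call. Mrps7 rose while Gga3, which encodes a sorting adaptor of the Golgi, fell from 14.8 and 12.1 TPM to 5.75 and 6.26 TPM (log2 change -1.02, limma, adjusted p = 0.00334). The exons of Gga3 and Mrps7 overlap over 127 bases. Klc4, a kinesin light chain gene next to Mrpl2, fell from 43.1 and 44.6 TPM to 26.4 and 26.6 TPM (log2 change -0.68, limma, adjusted p = 0.00227), while Mrpl2 had a log2 change of 0.25 (adjusted p = 0.0859). Pnpla7, a lysophospholipase gene next to Mrpl41, and Eme2, a nuclease subunit gene next to Mrps34, rose by 0.64 and 0.65 on the log2 scale (limma, adjusted p of 0.00647 and 0.00655). The changes of Mrpl41 and Mrps34 were 0.12 and -0.23, neither past the test. Whether members and neighbours share control of their starts was not tested.

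**Figure D4:**
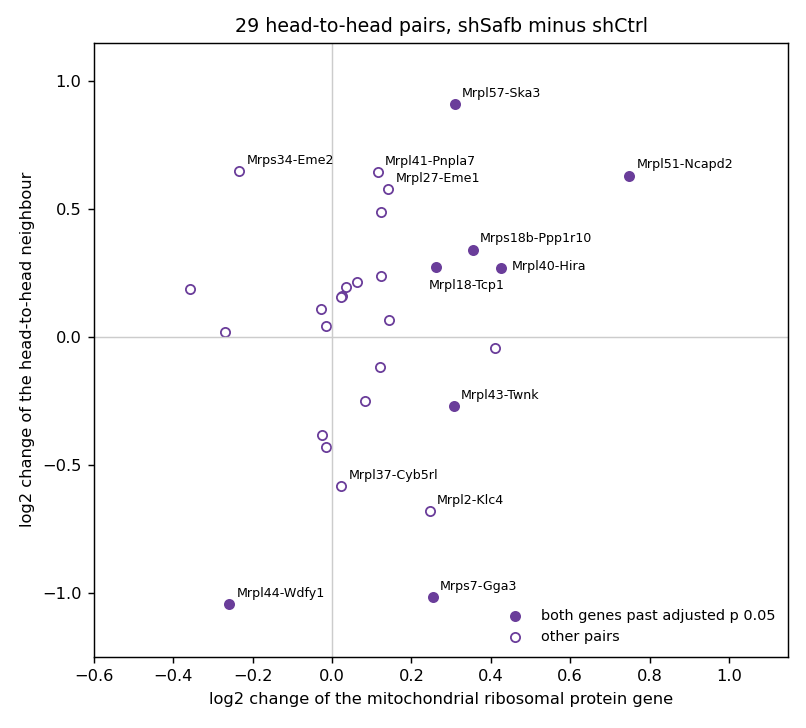
Log2 change (shSafb minus shCtrl) of each mitochondrial ribosomal protein gene (horizontal) and of its head-to-head neighbour (vertical), 29 pairs, filled where both genes passed an adjusted p of 0.05. Filled points are found in the upper right (Mrpl51 with Ncapd2, at 0.75 and 0.63), lower left (Mrpl44 with Wdfy1, at -0.26 and -1.04) and lower right (Mrps7 with Gga3, at 0.25 and -1.02).

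Neighbours on the same strand can share exons with a member. Slc5a3, the gene of a myo-inositol transporter that lies within the Mrps6 locus and shares 159 exonic bases with it, rose from 3.89 and 3.82 TPM to 15.9 and 16.0 TPM (log2 change 1.83 ± 0.08, SE; limma, adjusted p = 6.77e-04). Mrps6 itself stood at 30.8, 31.1, 32.8 and 32.2 TPM over the 4 libraries (log2 change 0.09, adjusted p = 0.261). Urgcp, which shares 226 exonic bases with Mrps24, changed by -0.86 on the log2 scale (limma, adjusted p = 0.0383) but did not pass the test without shCtrl replicate 1 (adjusted p = 0.116) or shCtrl replicate 2 (adjusted p = 0.126), and Mrps24 had one of 0.15 (adjusted p = 0.108). In all, exons of 33 members overlap those of another gene, 28 of them on the opposite strand and 8 on the same strand, and no source used here says how the authors' counting shared such reads.

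Pseudogenes are common in the family. A pseudogene in the table with at least 95% identity over at least 200 bases was found for 18 members, 25 copies in all, but those of only Mrpl23 and Mrpl48 had a mean of 1 TPM or more. Mrpl48-ps, 98.1% identical to Mrpl48 over 636 bases, was listed at 15.5 and 16.3 TPM in shCtrl and at 22.3 and 20.4 TPM in shSafb (log2 change 0.42, limma, adjusted p = 0.0180). Mrpl48-ps no longer passed the test without shCtrl replicate 1, at an adjusted p of 0.0719, or without shSafb replicate 1, at 0.0806. Mrpl48 itself had a log2 change of -0.02, and the division of reads between it and the copy is uncertain.

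The companions of the ribosome are given from lists of related genes. Beside their counts stand the shares among all genes tested, of which 21.9% were higher and 22.4% lower, with a median log2 change of 0.0016. Of 5 proteins of the mitochondrial ribosome under other symbols, Ptcd3, a pentatricopeptide repeat protein of the small subunit, rose (log2 change 0.25, limma, adjusted p = 0.0141), a call that was lost without any 1 of the 4 libraries (adjusted p between 0.0514 and 0.0729). Aurkaip1 had a log2 change of -0.40 (adjusted p = 0.0567) and Gadd45gip1 one of -0.17 (adjusted p = 0.0981), and the median of the 5 was 0.004. Of 25 factors of ribosome assembly and ribosomal RNA modification, 3 rose (12.0%) and 6 fell (24.0%), with a median of 0.01. Ngrn, which encodes neugrin, needed for the large ribosomal RNA of mitochondria, went from 96.3 and 98.9 TPM to 52.2 and 51.3 TPM (log2 change -0.88 ± 0.05, SE; limma, adjusted p = 0.00102). Mtg1, a GTPase of large subunit assembly, fell by 0.63 on the log2 scale (limma, adjusted p = 0.00616), and Mpv17l2, a membrane protein linked to assembly, rose by 0.60 (limma, adjusted p = 0.00230). These 3 genes passed the test in every alternative. For the list, the rises numbered 2, 2, 1 and 2 and the falls 4, 6, 4 and 3 without shCtrl replicate 1, shCtrl replicate 2, shSafb replicate 1 and shSafb replicate 2.

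Among 12 tested factors of mitochondrial translation, 4 fell (33.3%, against 22.4% of all genes) and none rose, with a median log2 change of -0.09 (limma; none was higher at an unadjusted p under 0.05 either). Mtif3, an initiation factor, went from 29.9 and 29.3 TPM to 11.9 and 16.0 TPM (log2 change -1.02 ± 0.14, SE; limma, adjusted p = 0.00659). Mtfmt, which formylates the initiator methionyl-tRNA, had a log2 change of -0.64 (limma, adjusted p = 0.0129), and Tufm, the elongation factor that delivers tRNAs, one of -0.39 (limma, adjusted p = 0.0316). Without shCtrl replicate 1, shCtrl replicate 2, shSafb replicate 1 and shSafb replicate 2, the number of these factors that fell was 1, 2, 1 and 3. Leaving out shCtrl replicate 1 or shSafb replicate 1 gave Mtfmt an adjusted p of 0.0596 or 0.0502, and that of Tufm was 0.100, 0.0997 and 0.0706 without shCtrl replicate 1, shCtrl replicate 2 and shSafb replicate 1.

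Of 20 genes for mitochondrial aminoacyl-tRNA synthesis, 2 rose and 2 fell (10.0% each), with a median of -0.05, and at most 1 rise and 1 fall were left when any 1 of the 4 libraries was left out. Of 11 factors for mitochondrial DNA, transcription, messenger RNA and membrane insertion, 5 fell (45.5%, against 22.4% of all genes) and none rose (limma; none was higher at an unadjusted p under 0.05 either), with a median of -0.26. They included Lrpprc, which stabilises mitochondrial messenger RNA (39.5 and 42.3 TPM against 31.2 and 29.6 TPM, log2 change -0.39, limma, adjusted p = 0.0162), and Tfam, the factor that packages mitochondrial DNA and starts its transcription (18.1 and 16.9 TPM against 13.6 and 12.7 TPM, log2 change -0.36, limma, adjusted p = 0.0179). Leaving out shCtrl replicate 1, shCtrl replicate 2, shSafb replicate 1 or shSafb replicate 2 left 2, 2, 0 and 1 of the 5 calls. Lrpprc was lost without shSafb replicate 1 (adjusted p = 0.0527) or shSafb replicate 2 (adjusted p = 0.0747), and Tfam without any 1 library (adjusted p between 0.0536 and 0.0873).

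Of 10 tested transcription factors and coactivators known to act on nuclear genes for mitochondrial proteins, 5 rose and 1 fell (60.0% called, against 44.3% of all genes tested), with a median log2 change of 0.31. The fall was in Esrra, the most abundant of the list, from 138.6 and 139.3 TPM to 120.3 and 113.3 TPM (log2 change -0.22, limma, adjusted p = 0.0286). Its call was lost in at least 1 alternative. Nrf1 went from 23.0 and 23.3 TPM to 33.3 and 32.1 TPM (log2 change 0.51 ± 0.06, SE; limma, adjusted p = 0.00470), and Gabpb2, a partner of GABPA, from 12.8 and 12.3 TPM to 18.9 and 17.3 TPM (log2 change 0.52 ± 0.08, SE; limma, adjusted p = 0.00775). Both passed in every alternative. Yy1 rose by 0.33 (limma, adjusted p = 0.0115), lost without shSafb replicate 1 (adjusted p = 0.0555) or shSafb replicate 2 (adjusted p = 0.0597). The number of these factors that rose was 4, 3, 3 and 2 without shCtrl replicate 1, shCtrl replicate 2, shSafb replicate 1 and shSafb replicate 2.

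The cytosolic ribosome is the counterpart of this machine outside mitochondria. Of its 80 tested protein genes, 29 were higher (36.2%) and 9 lower (11.2%) in shSafb, with a median of 0.07, the same to 2 decimals as that of the 78 mitochondrial ribosomal protein genes. Without shSafb replicate 1 or shSafb replicate 2 the higher genes numbered 17 and 19, and the lower genes 4 in each case. Of the 12 tested genes for the proteins that the mitochondrial ribosome makes, 10 were lower (83.3%), with a median of -0.96 (limma, none higher at an unadjusted p under 0.05). With the untested mt-Atp6 included, the 13 genes summed to 6920 and 5781 TPM in shCtrl and 2605 and 2862 TPM in shSafb. Most of that sum was mt-Co1, at 4980 and 4177 TPM in shCtrl and 1760 and 1977 TPM in shSafb. The libraries of the 2 groups were far apart in that sum, while in the sum of the 78 nuclear genes they overlapped. The sum of the nuclear genes includes Mrpl34, with means of 100.1 TPM in shCtrl and 18.4 TPM in shSafb. Some mitochondrially encoded genes had far lower or uneven values. Over shCtrl 1, shCtrl 2, shSafb 1 and shSafb 2, mt-Co2 was listed at 47.0, 38.6, 19.2 and 0 TPM. In the same order, mt-Nd4l stood at 2.98, 0.949, 1.90 and 2.79 TPM and mt-Atp6 at 0.0189, 0.0139, 3.29 and 0.0252 TPM. The cause was not tested, and the levels of this list are uncertain to that extent.

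**Figure D5:**
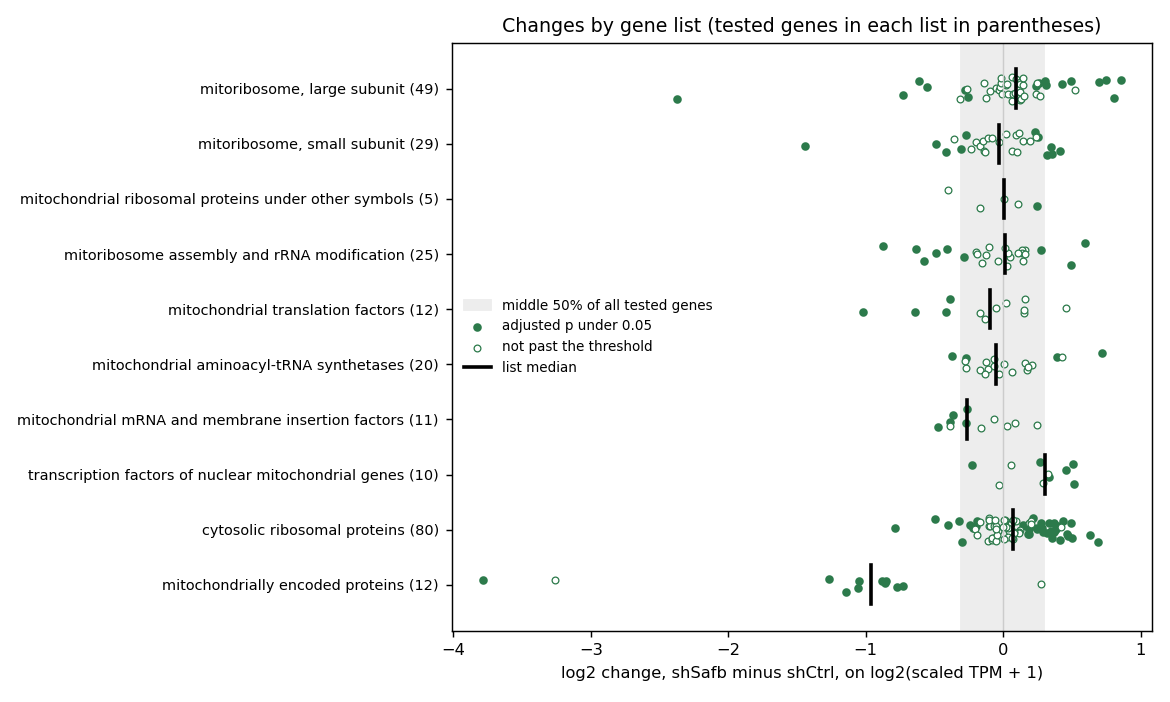
Log2 change (shSafb minus shCtrl, horizontal) of the genes of each list, filled past an adjusted p of 0.05, with a bar at each list's median and a grey band for the middle 50% of all genes tested (-0.31 to 0.29); vertical scatter within a list has no meaning. The medians of the large and small subunit lists, 0.10 and -0.03, lie within the band, and that of the mitochondrially encoded proteins, -0.96, lies outside it.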

How the data were processed

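RNA was measured in 4 libraries of AML12 cells, made strand-specifically from total RNA after depletion of ribosomal RNA, per the labels' protocols. The authors deposited 1 TPM value per gene and library. The submitters' processing notes name mm10 as the genome build and HISAT2, HTSeq, DESeq2 and StringTie as tools, and versions, annotation and strand use are not given in the sources used here. Groups come from the sample titles.

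The table has 52200 rows, with 6 identifiers on several rows, which were summed. Identifiers were matched to GENCODE mouse release M21 on GRCm38 (52045 found, 147 not). The deposited TPM summed to 999891.2 and 999891.1 in shCtrl and to 999843.2 and 999843.1 in shSafb. With no counts, no counting interval was given.

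The 13111 genes with a mean of at least 1 TPM were scaled by median ratio and fitted as log2(TPM + 1) with limma 3.58.1 in R 4.3.3 (a two-sided test of the group term, a variance prior that followed the intensity, residual df of 2 and prior df of 2.61, and Benjamini-Hochberg adjustment over all 13111 genes). The threshold was an adjusted p of 0.05. Log2 changes are shSafb minus shCtrl on the log2(scaled TPM + 1) scale, which understates changes of low genes. Printed levels are deposited TPM. Exact permutation of 2 against 2 libraries cannot reach 0.05. The script was tested on simulated data.

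Named genes were Safb, up to 10 called members in each direction by size of change without overlap, the 3 most abundant of each subunit, the Mrps18 paralogs, Mrps30, members with a head-to-head or overlapping neighbour called at 1.5-fold or more, and up to 3 genes of each companion list by smallest p; some of the last are not described. The members and lists were chosen with earlier results of these data known. Of the list genes, 1 translation factor was not matched to a symbol.

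Copies were sought with BLAST 2.17.0. Tables and plots were made in Python 3.11.15 (matplotlib 3.10.9, numpy 2.4.6, pandas 2.3.3). Alternatives covered the pseudocount, the filter, the scaling, the variance trend, a replicate block, leaving out each library and a fold threshold.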

Additional observations from a re-analysis of the deposited data

How the results depend on the processing

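The members higher numbered 16 and the members lower 11. With 1 library left out they numbered 7 to 13 and 6 to 8, with 14 to 17 of the 27 calls kept and up to 3 others gained. A fold of at least 1.5 gave 4 and 4. Of the 27 calls, 27 were kept with either other pseudocount, 25 with a filter at 0.1 TPM, 27 with one at 5 TPM, 21 with none, 27 with no scaling or with TPM rescaled without small RNA and mitochondrial genes, and 23 without the variance trend. With the filter at 0.1 TPM or with none, the share of members called was no longer below that of all genes tested. No called member changed direction in any setting. Mrps12, not called, turned from 0.02 to -0.0021 with no scaling, -0.0085 with rescaled TPM, and to between -0.0508 and 0.0814 with 1 library left out (-0.0508 and -0.0082 without shCtrl replicate 1 and shSafb replicate 2); where it turned, its adjusted p was 0.571 to 0.982, and the cause was not tested. Scaling moved the median of all genes from 0.0016 to -0.021 and -0.027. The large to small ratio was 2.69 in shCtrl and 2.73 in shSafb with subunits assigned by structure, and 2.39 to 2.45 and 2.45 to 2.58 with 1 library of a group left out. The replicate block gave 15 higher and 11 lower, keeping 24 calls. Deviations of same-numbered libraries from their group means had a correlation of -0.064 across genes. With 2 libraries a group, both numbers give the same value. It cannot show whether same-numbered libraries share a culture or a batch. With 2 libraries a group and no counts, small changes are not separable from noise.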
